A study of Mus musculus with 24 samples.

Results

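This report describes 8 named genes in polyadenylate-selected RNA-seq of mouse liver: Rn45s (the ribosomal RNA precursor), Rpph1 and Rmrp (the RNAs of RNase P and RNase MRP), Vaultrc5 (a vault RNA), the Y RNAs Rny1 and Rny3, Terc (telomerase RNA), and Lars2 (mitochondrial leucyl-tRNA synthetase). Members were found by symbol, and 6 of the 8 had a line among the 24015 genes of the deposited count table; Rny1 and Rny3 were not analysed here. They were chosen by their levels in frozen and fixed liver and, for Lars2, by how its counts followed those of Rn45s. Those patterns are therefore given below as descriptions without a test, and for the members only the furan comparisons were tested. For other genes FFPE and frozen livers were also tested, in fits that did not pair the pieces of a liver.

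All animals were female B6C3F1 mice, 5 to 6 weeks old per the labels. Furan mice received 8 mg furan per kg body weight per day in corn oil by gavage for 21 days, and control mice received corn oil alone. Livers were collected 4 h after the final gavage. Of each liver, a piece was snap-frozen and the other pieces spent 18 h or 3 wk in formalin before embedding in paraffin (FFPE), so pieces with the same animal number come from the same liver. The groups used were FFPE 18 h (4 furan, 4 control), FFPE 3 wk (4 furan, 4 control) and fresh-frozen (3 furan, 3 control), 22 libraries in all. The frozen pieces of animals 42 and 03 were not analysed here. RNA came from 1 section (18 h) or 2 sections (3 wk) of 10 µm with an FFPE kit, and from about 100 mg of frozen tissue with another kit, so fixation, kit and tissue amount cannot be told apart. RNA integrity numbers were 1.3 to 2.4 for FFPE and above 8.9 for frozen RNA. Libraries held 16269854 to 22494012 counts (FFPE 18 h), 3666173 to 11780691 (FFPE 3 wk) and 33101755 to 58048387 (fresh-frozen). The 7 hepatocyte markers made up 12.9 to 14.5% of counts in furan and 8.32 to 14.7% in control FFPE 18 h libraries, 9.33 to 10.8% in furan and 9.69 to 11.4% in control FFPE 3 wk libraries, and 16.2 to 16.7% in furan and 16.1 to 16.5% in control frozen libraries. Each of the other 7 marker lists stayed at or below 0.0708% in every library. The skeletal muscle markers reached 0.0374% in furan and 0.0207% in control 3 wk libraries and 0.00171% in furan 18 h libraries. They stayed at or below 2.46e-05% in control 18 h and 1.23e-05% in frozen libraries. The erythroid markers Hbb-b1 and Hba-a1 were at 0 in all libraries, while the third, Alas2, made up 0.00155 to 0.00389%. Whether blood was absent was not tested.

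RNA polymerase I transcribes the ribosomal DNA into a long precursor that is processed into the 18S, 5.8S and 28S ribosomal RNAs, and neither the precursor nor its products carry the long poly(A) tail of an mRNA. RNase P removes the leader of precursor tRNAs, RNase MRP cuts the ribosomal precursor, vault RNAs sit in the vault particle, and telomerase RNA is the template for telomere repeats. Oligo(dT) selection, used for all of these libraries, keeps RNA through stretches of A. Lars2 differs from the other members in being a protein-coding mRNA.

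The RNA sequences of 2 members are shown because oligo(dT) selection acts on runs of A, and both have very short ones. Rpph1 (319 nt, chr14:50807449-50807767, minus strand) and Rmrp (271 nt, chr4:43492788-43493058, minus strand) are given as DNA letters from GENCODE M21 on build GRCm38, a later build than that of the counts, with the first of the longest runs of A in capitals; of Rpph1 the first 300 bases are printed (chr14:50807468-50807767).
Rpph1: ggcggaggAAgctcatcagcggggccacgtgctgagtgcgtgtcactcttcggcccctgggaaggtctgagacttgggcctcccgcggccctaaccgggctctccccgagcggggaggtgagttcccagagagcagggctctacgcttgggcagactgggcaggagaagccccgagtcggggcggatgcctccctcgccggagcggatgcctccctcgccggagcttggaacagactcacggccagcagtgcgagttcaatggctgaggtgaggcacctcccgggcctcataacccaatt
Rmrp: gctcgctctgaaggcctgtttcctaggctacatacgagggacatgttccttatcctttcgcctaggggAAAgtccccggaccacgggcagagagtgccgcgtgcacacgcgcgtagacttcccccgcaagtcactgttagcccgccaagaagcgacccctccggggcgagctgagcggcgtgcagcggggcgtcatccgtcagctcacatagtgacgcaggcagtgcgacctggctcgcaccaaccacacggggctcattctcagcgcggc
The longest run was 2 A in Rpph1, found at 8 places, and 3 A in Rmrp, found once; G and C made up 67.1% of Rpph1 and 64.2% of Rmrp. Vaultrc5 (143 nt) also had no run longer than 2 A, Terc (423 nt, chromosome 3) had 5, and the Lars2 mRNA (3894 nt, chr9:123366927-123462664) had 6. No Rn45s sequence was used here.

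Rn45s took a much larger share of the counts in FFPE than in frozen liver. Its counts can come from the precursor or from the mature ribosomal RNAs within it, which a count per gene cannot tell apart. In furan livers its share was 8.05, 16.5, 7.76 and 9.84% of counts after 18 h in formalin (animals 41, 42, 43, 44), 8.05, 13.2, 6.42 and 12.6% after 3 wk, and 0.129, 0.155 and 0.520% in frozen pieces (41, 43, 44). In control livers it was 7.22, 6.84, 6.42 and 37.3% after 18 h (02, 03, 04, 06), 6.03, 9.45, 4.85 and 7.23% after 3 wk, and 0.169, 0.133 and 0.182% in frozen pieces (02, 04, 06). Every FFPE library lay above every frozen one, and the 18 h library of control 06 lay far above its group. Rn45s had the highest or second highest count of all genes in every FFPE library, and ranked 13 to 82 in frozen ones. With this depth the widest 95% Wilson interval of a share was 0.0244 percentage points either side, which covers counting error only.

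**Figure D1:**
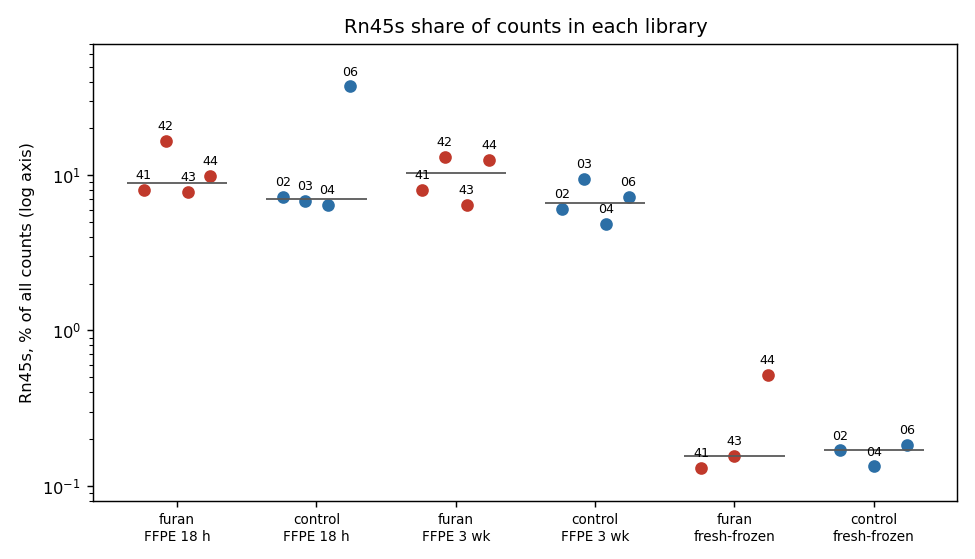
Rn45s as a percentage of all counts (log axis) in each library, with animal numbers above the points and a line at each group's median; red is furan and blue control. FFPE libraries lie between 4.85 and 37.3%, and frozen libraries between 0.129 and 0.520%.

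Within single livers, Rn45s was 18.9- to 62.2-fold higher in the 18 h piece than in the frozen piece of the 3 furan livers, and 42.8-, 48.2- and 204-fold higher in controls 02, 04 and 06. The 3 wk piece was 24.1- to 62.2-fold higher than the frozen piece in furan livers and 35.8- to 39.6-fold higher in controls. The 3 wk piece was above the 18 h piece in 3 of 8 livers. Control 06 had 0.194 times as much Rn45s in its 3 wk piece as in its 18 h piece, whereas the other 7 livers had 0.755 to 1.38 times as much. So the excess of that liver was seen in a single piece.

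The fitted log2 difference of Rn45s, FFPE minus fresh-frozen, was 5.58 ± 0.55 (18 h) and 5.19 ± 0.53 (3 wk) in furan livers, and 7.06 ± 1.01 (18 h) and 5.33 ± 0.28 (3 wk) in control livers (± SE). Without the 18 h library of control 06 the third of these was 5.52. In furan livers 4 (18 h) and 5 (3 wk) of the 6 members lay wholly above the frozen group in CPM, against 28.2 and 25.2% of all genes tested, and in controls 6 and 5 did, against 19.2 and 20.2%. These counts describe the choice of members, and Rpph1, Rmrp and Vaultrc5 passed the filter on low counts through their FFPE libraries alone. The 6 in control 18 h livers included Terc, which was not among the genes tested. Its lowest value there was 1 count in control 02 (0.0589 CPM), against 3 counts in frozen control 04 (0.0582 CPM). The 6 members summed made up 7.96 to 17.3% of counts in furan and 6.59 to 39.5% in control 18 h libraries, 6.63 to 13.7% in furan and 5.01 to 9.82% in control 3 wk libraries, and 0.271 to 0.710% in furan and 0.206 to 0.268% in control frozen libraries. Rn45s was 94.5 to 97.7% of that in FFPE libraries, but only 46.9 to 73.2% in furan and 64.1 to 81.8% in control frozen libraries, where Lars2 made up nearly all of the rest. A larger share for one gene lowers the share of all others. The hepatocyte markers, at 8.32% of all counts in the 18 h library of control 06, were 13.7% of its counts outside the members. The other control 18 h libraries had 14.6 to 15.7%. Outside the members the markers were still lower in every FFPE than in every frozen library. They made up 14.9 to 15.8% in furan 18 h libraries. At 3 wk they made up 10.7 to 11.5% in furan and 10.47 to 11.97% in control libraries. In frozen libraries they made up 16.2 to 16.7% in furan and 16.1 to 16.5% in control livers. The cause of this remaining difference was not tested.

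The RNAs of the tRNA- and rRNA-cutting enzymes showed the same order with lower counts. Rpph1 had 163, 1353, 410 and 422 counts in furan 18 h libraries (41, 42, 43, 44), 360, 670, 155 and 939 in furan 3 wk libraries, and 2, 4 and 10 in furan frozen libraries. In controls it had 244, 215, 179 and 2643 counts after 18 h (02, 03, 04, 06), 91, 644, 195 and 415 after 3 wk, and 6, 5 and 2 in frozen pieces. No FFPE library came near the frozen ones, and control 06 and furan 42 were highest at 18 h, as for Rn45s. Pooled over libraries, the level in CPM (counts per 1000000 counts) was 260-fold higher in FFPE 18 h than in frozen furan livers (95% counting interval 160.0 to 456) and 542-fold higher in controls (317 to 1019). These rest on single libraries. Without control 06 the control ratio was 138. The furan ratio was 143 without the 18 h library of furan 42, 167 without frozen furan 41 and 520 without frozen furan 44. After 3 wk it was 541-fold higher in furan livers (333 to 949) and 458-fold higher in controls (267 to 863). The furan value was 346 without frozen furan 41 and 1081 without frozen furan 44.

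Rmrp had 144, 1059, 256 and 294 counts in furan 18 h libraries, 221, 255, 92 and 736 in furan 3 wk libraries, and 9, 9 and 20 in furan frozen libraries. In controls it had 107, 146, 145 and 2040 counts after 18 h, 87, 552, 167 and 7 after 3 wk, and 2, 5 and 5 in frozen pieces. The liver of control 06 held both extremes: 125 CPM in the 18 h piece, the highest of all libraries, and 0.710 CPM in the 3 wk piece, the lowest of all FFPE libraries. Its Rpph1 did not share that low value, at 42.1 CPM in the same 3 wk library. In GENCODE M21 an exon of a Ccdc107 transcript on the opposite strand overlaps Rmrp over 124 bases, and the library kit does not mark strand, so reads of the pair cannot be told apart there.

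Vaultrc5 had 0 or 1 count in every frozen library, 10 to 122 counts in furan and 15 to 300 in control 18 h libraries, and 16 to 195 in furan and 16 to 324 in control 3 wk libraries. Its CPM was higher in the 3 wk than in the 18 h libraries apart from control 06 and furan 42 at 18 h: 4.11 to 16.6 CPM in furan and 4.36 to 33.4 in control 3 wk libraries, against 0.615, 1.51 and 1.46 in furans 41, 43 and 44 and 0.884 to 1.24 in controls 02, 03 and 04 at 18 h. With 2 counts in frozen furan livers and 1 in frozen controls the ratios are wide: 171-fold (46.8 to 1424) at 18 h and 736-fold (202 to 6101) at 3 wk in furan livers, and 767-fold (137 to 30365) and 2153-fold (385 to 85207) in controls. Without the 18 h libraries of furan 42 and control 06 the 18 h ratios were 81.8 in furan and 160 in control livers. Without the 3 wk library of control 03 the 3 wk control ratio was 1008. The single frozen control count was in control 06. Without that library the control ratios, against a floor of 3 counts, were at least 165 (18 h) and 464 (3 wk). Without frozen control 04 they were 502 and 1409. A near copy, Gm25403, shares 91.5% of 142 bases with it, so reads could be split between them.

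Terc stayed at the limit of detection in all groups. It had 5 counts over the 18 h, 3 over the 3 wk and 1 over the frozen furan libraries, and 12, 4 and 5 counts over those of the controls, with 5 the most in a single library. Without furan 42 or control 03 no Terc count was left at 3 wk in that group. Its CPM ratio of FFPE to frozen livers was 8.87 (0.993 to 420) at 18 h and 12.2 (0.982 to 642) at 3 wk in furan livers, and 5.15 (1.69 to 18.7) and 3.54 (0.703 to 16.5) in controls. Per kb of the longest annotated transcript (281 nt for Rmrp, longer than the one printed above), the median level in control 18 h livers was 40.0 CPM for Rpph1, 28.6 for Rmrp, 8.05 for Vaultrc5 and 0.430 for Terc. In control 3 wk livers these medians were 105, 70.6 and 50.3 CPM per kb for Rpph1, Rmrp and Vaultrc5, with Terc at 0. At either time the groups of Rpph1 and Rmrp overlapped each other.

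**Figure D2:**
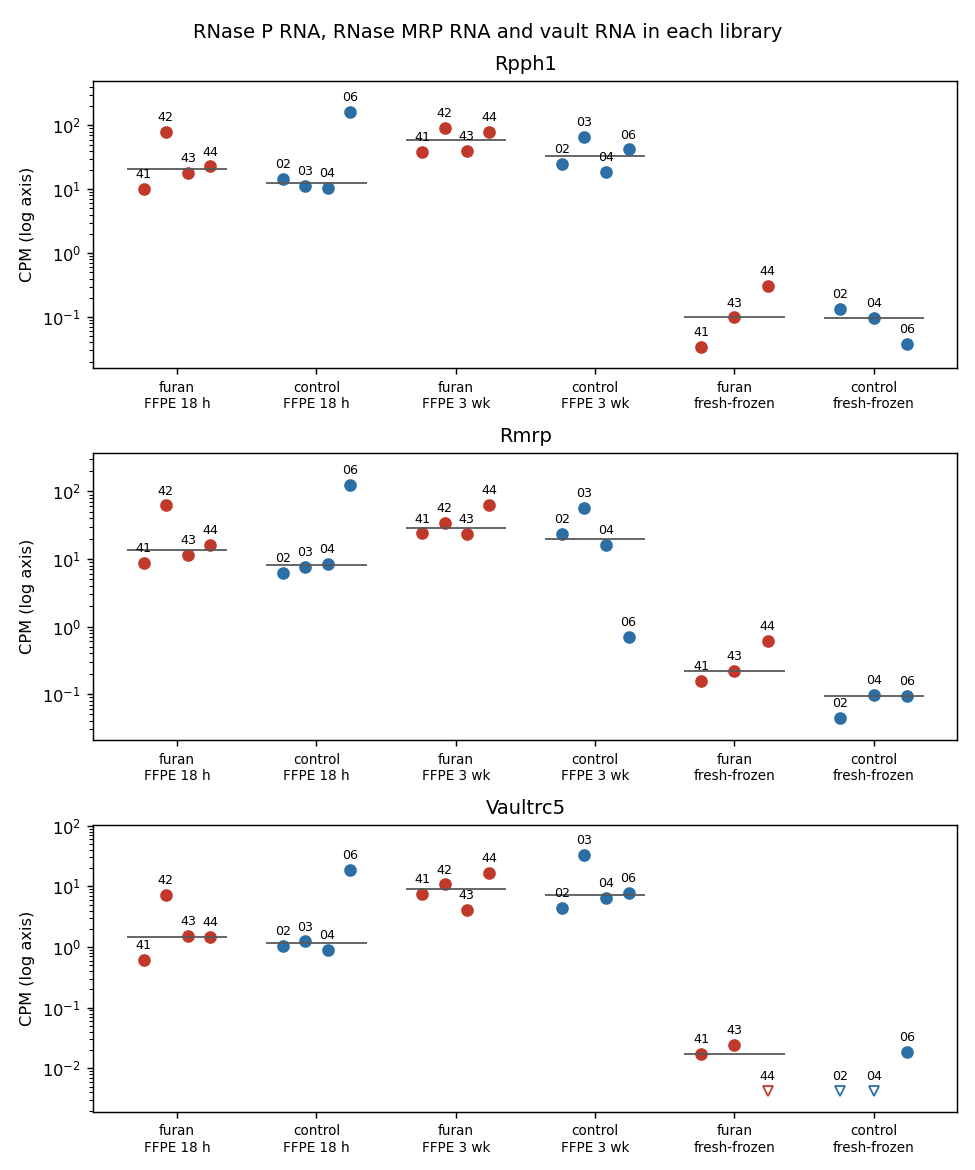
Rpph1, Rmrp and Vaultrc5 in CPM (log axes) in each library, with animal numbers above the points, lines at medians above 0, and open triangles for libraries with 0 counts drawn below the axis values. Frozen libraries hold at most 0.604 CPM of any of the 3 RNAs, and the 18 h library of control 06 and the 3 wk library of the same liver lie at opposite ends of the FFPE values for Rmrp.

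The 3 RNAs were not in a fixed ratio to Rn45s. Per 1000000 Rn45s counts, Rpph1 had a median of 234 in furan and 182 in control 18 h livers, 627 in furan and 497 in control 3 wk livers, and 58.1 in furan and 72.8 in control frozen livers. Vaultrc5 had 17.2 in furan and 16.4 in control 18 h livers, and 88.0 in furan and 122 in control 3 wk livers. The medians of Rmrp were 154 in furan and 122 in control 18 h livers, and 332 in furan and 361 in control 3 wk livers. In frozen livers they were 120 in furan and 51.9 in control livers. For Rmrp the furan frozen (116 to 142) and furan 18 h (110 to 375) values overlapped. Rpph1 was above its 18 h CPM in the 3 wk piece of 7 of 8 livers and Rmrp in 6 of 8, against 3 of 8 for Rn45s. Control 06 at 18 h was also highest of its group in this ratio, with 435 Rpph1 counts per 1000000 Rn45s counts.

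Of 33 other RNAs listed as lacking a regular poly(A) tail, 10 had a line, and 3 to 5 passed the filter on low counts in each FFPE comparison, some of them through the FFPE libraries alone. Malat1, with 209 to 245 CPM in frozen furan and 209 to 232 CPM in frozen control libraries, a nuclear RNA whose end is cut by RNase P and which has an A-rich stretch there, was 2.88 ± 0.19 (18 h) and 3.65 ± 0.21 (3 wk) higher on the log2 scale in furan livers, and 3.31 ± 0.26 and 3.38 ± 0.17 in controls (edgeR, adjusted p at most 2.7e-06 at 18 h and 5.8e-06 at 3 wk). Neat1, a nuclear RNA that also ends in a stretch cut by RNase P in its long form, was already abundant in frozen livers (144 ± 29 CPM in furan, 213 ± 54 in control, SD, n = 3 each). It rose by 0.93 ± 0.15 (18 h) and 1.80 ± 0.18 (3 wk) in furan and 1.07 ± 0.14 and 1.58 ± 0.17 in control livers. It was the 1 of 3 tested RNAs of this list called under furan at 18 h. It had 231 ± 36 CPM in furan and 364 ± 73 CPM in control livers (SD, n = 4 each). The log2 difference was -0.76 ± 0.11 (adjusted p = 0.00132, edgeR, where 4.47% of all genes were called lower). The groups overlapped, since furan 42 (267 CPM) lay above control 06 (260.3 CPM). Rprl3, an RNase P RNA-like gene with 86.0% identity to Rpph1 over 257 bases, had 0 counts in all frozen libraries and was at least 98.8-fold (18 h) and 177-fold (3 wk) higher in FFPE furan livers, and 161- and 94.5-fold in controls, against a floor of 3 counts over the frozen group. These limits rest on single libraries too. In furan livers they were 50.7 without furan 42 and 55.3 without frozen furan 41 at 18 h and 98.9 without frozen furan 41 at 3 wk. In controls they were 39.2 without control 06 at 18 h and 30.0 without control 04 at 3 wk. The 18 h and 3 wk limits of the controls were 105 and 61.9 without frozen control 04 and 104 and 61.1 without frozen control 06. Reads of Rprl3 and Rpph1 could be split between the pair.

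The mRNAs of the protein subunits of RNase P and RNase MRP were also higher in FFPE livers. At 18 h, 10 of 10 tested subunits rose in furan livers and 9 of 10 in controls, against 36.8 and 34.2% of all genes called higher. At 3 wk 4 and 3 of 10 rose, against 22.4 and 13.2%. Rpp21 was 3.40 ± 0.12 higher on the log2 scale in furan livers (adjusted p = 4.4e-10) and 3.26 ± 0.11 higher in controls at 18 h (adjusted p = 1.6e-08, edgeR), and Pop5 2.48 ± 0.07 and 2.50 ± 0.10 higher. The list medians at 18 h were 1.69 in furan and 1.42 in control livers, against 0.02 for all genes tested in each. The vault proteins went the other way: 3 of 3 fell in furan and 2 of 3 in control livers at 18 h, against 36.2 and 33.8% of genes called lower, with Mvp at -0.46 ± 0.10 and -0.58 ± 0.08. At 3 wk 2 of 3 fell in furan and 1 of 3 in control livers, against 22.9 and 13% of genes called lower, with Mvp at -1.30 ± 0.20 and -1.41 ± 0.45.

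Lars2 stood apart from the other members in frozen liver, where it was abundant. Its CPM was 1833, 7748, 2054 and 2933 in furan 18 h livers (41, 42, 43, 44), 2527, 4609, 2058 and 4117 in furan 3 wk livers, and 1417, 1758 and 1901 in furan frozen livers (41, 43, 44). In controls it was 2309, 1880, 1721 and 21447 CPM after 18 h (02, 03, 04, 06), 1886, 3603, 1574 and 2418 after 3 wk, and 374, 747 and 856 in frozen pieces (02, 04, 06). FFPE and frozen groups did not overlap in controls, and the furan 18 h group overlapped the furan frozen one. The log2 difference, FFPE minus fresh-frozen, was 1.40 ± 0.45 (18 h) and 0.93 ± 0.25 (3 wk) in furan livers, and 4.04 ± 1.16 and 1.78 ± 0.35 in controls. Without furan 42 the first was 0.63, and without control 06 the third was 1.71. With the liver as a block, to which furan 42 and control 03 add nothing for want of a frozen partner, the 18 h values were 0.61 in furan and 3.12 in control livers.

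In FFPE libraries the ratio of Lars2 to Rn45s counts was low, at 0.0228 to 0.0469 in furan and 0.0268 to 0.0575 in control 18 h libraries, and 0.0314 to 0.0349 in furan and 0.0313 to 0.0381 in control 3 wk libraries. In frozen libraries it was 1.10, 1.13 and 0.366 in furans 41, 43 and 44, and 0.222, 0.561 and 0.469 in controls 02, 04 and 06. Every frozen library lay above every FFPE library in this ratio. After group means were removed, Lars2 and Rn45s had r = 0.884 over the 22 libraries and 0.614 without the 18 h libraries of control 06 and furan 42, a description only, since the rule for Lars2 used it.

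**Figure D3:**
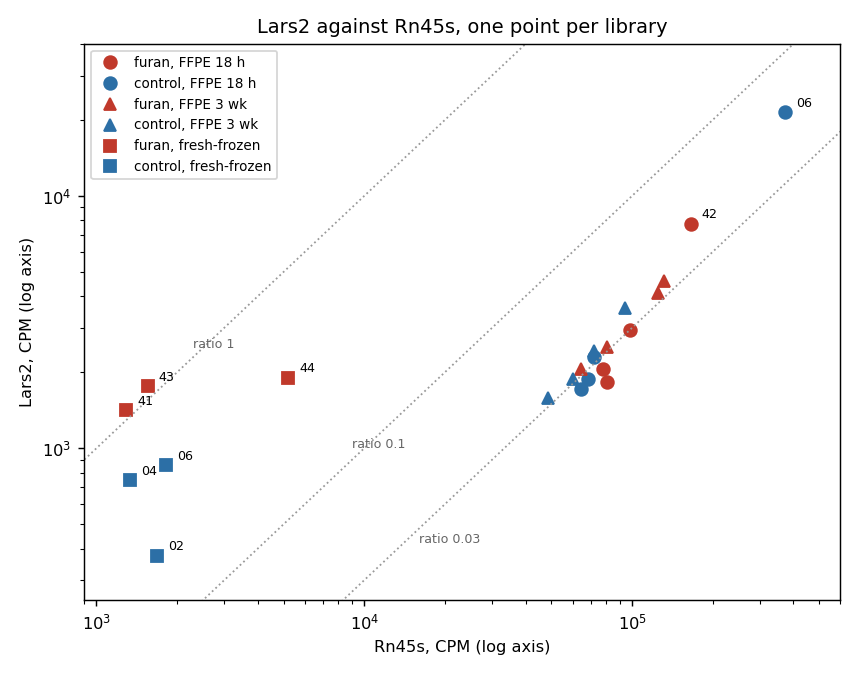
Lars2 against Rn45s, both in CPM on log axes, 1 point per library, with dotted lines at fixed ratios of Lars2 to Rn45s; red is furan and blue control, and shapes give the preservation. FFPE libraries lie near a ratio of 0.03, and frozen libraries lie above 0.1 with furans 41 and 43 near 1.

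The 3′ UTR of Lars2 holds sequence shared with other transcripts. In its reference mRNA the UTR starts at base 2909, and bases 3163 to 3349 aligned to the transcript AA474408 at 80.1% identity and bases 3278 to 3349 to Gm15564 at 98.6%, both on the same strand. As background, this stretch resembles 28S ribosomal RNA. How many of the Lars2 counts came from it was not tested, since the table holds 1 count per gene.

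Lars2 was also out of scale with its own enzyme family. Per kb of transcript it averaged 435 ± 64 CPM in furan and 169 ± 65 in control frozen livers (SD, n = 3 each). Mitochondrial aminoacyl-tRNA synthetases charge tRNAs for translation in mitochondria. The 19 other genes listed as such had a median of 6.48 in furan and 6.28 in control frozen livers. Their highest mean was 31.6 (Gars) in furan and 25.6 (Kars) in control frozen livers. Gars and Kars also encode the cytosolic enzymes, and Qrsl1 on this list is an amidotransferase subunit rather than a synthetase. In FFPE livers Lars2 averaged 935 ± 713 in furan and 1756 ± 2502 in control 18 h livers, and 855 ± 315 in furan and 609 ± 229 in control 3 wk livers, against highest means of 26.7 (Gars) and 20.2 (Kars) at 18 h and 18.0 (Gars) and 16.6 (Kars) at 3 wk. The FFPE minus fresh-frozen log2 differences of the 19 genes had medians of 0.04 (18 h) and -0.56 (3 wk) in furan livers and -0.01 and -0.54 in controls, and Lars2 was above all 19 in each of these comparisons.

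**Figure D4:**
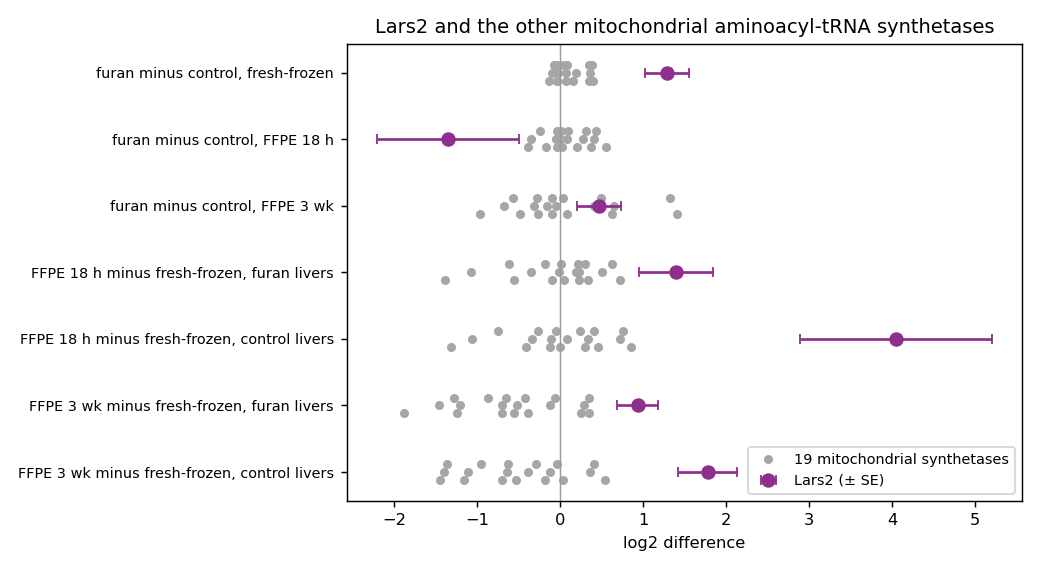
Log2 differences of Lars2 (purple, ± SE) and of 19 other genes listed as mitochondrial aminoacyl-tRNA synthetases (grey) in each comparison. Lars2 lies beyond the range of the others in 6 of 7 comparisons, and inside it in furan minus control at 3 wk.

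Furan was then compared with control within each kind of piece. In frozen liver Lars2 was the only tested member called higher. It had 1692 ± 249 CPM in furan and 659 ± 253 CPM in control livers (SD, n = 3 each). The log2 difference was 1.29 ± 0.27, with an adjusted p of 0.0179 (edgeR quasi-likelihood test, Benjamini-Hochberg). All 3 furan livers lay above all 3 controls. Of the 2 members tested there, 1 was called, against 15.7% of 13794 genes, 8.21% of which were called higher, and groups did not overlap in the higher direction for 26.9% of genes. The call was lost without furan 43 (adjusted p = 0.0639), without furan 44 (0.0605) and in one model of all 6 groups (1.00, with a log2 difference of 1.27).

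Rn45s did not pass in frozen liver, with a log2 difference of 0.64 ± 0.47 (adjusted p = 0.393, edgeR). Its mean was 2682 ± 2184 CPM in furan and 1615 ± 254 CPM in control livers, and the excess was that of furan 44, at 5200 CPM. The difference turned to -0.24 without that library. As a share of counts it was 0.268 ± 0.218% in furan and 0.161 ± 0.025% in control livers (exact two-sided permutation test p = 0.90, adjusted over 3 tests p = 1.00; the smallest possible p is 0.10). Rmrp, too low for the fit, had 38 counts in the furan libraries, 20 of them in furan 44, and 12 in the control libraries. Its CPM ratio was 3.59, with a counting interval of 1.84 to 7.54 that does not cover the spread between animals. All of its furan livers lay above its controls, as they did for 26.9% of the genes tested, among which Rmrp was not. Rpph1, with 16 and 13 counts, had a ratio of 1.39 (0.629 to 3.15).

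At 18 h no member passed, against 8.39% of 12832 genes called. The log2 differences of the 5 tested members, furan minus control, ran from -1.42 ± 1.04 (Vaultrc5) to -0.84 ± 0.61 (Rn45s), with adjusted p from 0.378 to 0.582 (edgeR). All of these signs rested on the library of control 06: without it the differences were 0.66 (Rn45s), 1.49 (Rpph1), 1.77 (Rmrp), 1.38 (Vaultrc5) and 0.94 (Lars2), with adjusted p from 0.0626 to 0.238. Without control 06 and furan 42 together, a choice made after seeing the data, they were 0.31 for Rn45s (adjusted p = 0.0251), and 0.49, 0.68, 0.16 and 0.19 for Rpph1, Rmrp, Vaultrc5 and Lars2 (adjusted p from 0.0577 to 0.885). The Rn45s share was 10.5 ± 4.1% in furan and 14.4 ± 15.2% in control livers (exact two-sided permutation test p = 1.00, adjusted p = 1.00, n = 4 each).

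At 3 wk no member passed either, against 0.821% of 12064 genes called. The log2 differences were 0.52 ± 0.22 for Rn45s (adjusted p = 0.378), 0.68 ± 0.38 for Rpph1, 0.55 ± 0.70 for Rmrp, -0.45 ± 0.66 for Vaultrc5 and 0.46 ± 0.26 for Lars2 (adjusted p from 0.589 to 0.914, edgeR). Without single libraries Rpph1 ranged from 0.44 (without furan 42) to 1.12 (without control 03). Rmrp ranged from 0.14 (without control 06, whose 7 counts were the lowest) to 1.47 (without control 03). The Vaultrc5 value rested on control 03, with 33.4 CPM, and was 0.63 without it. Rn45s made up 10.1 ± 3.3% of counts in furan and 6.89 ± 1.96% in control livers, with overlapping groups (exact two-sided permutation test p = 0.171, adjusted p = 0.514; the smallest possible p with 4 against 4 is 0.0286).

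**Figure D5:**
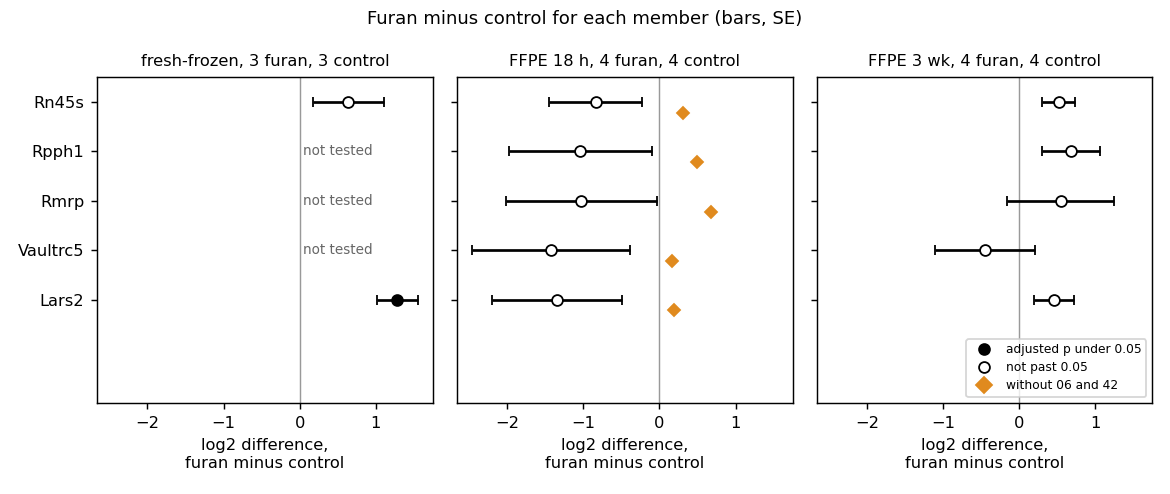
Log2 differences, furan minus control, of each member in frozen, 18 h and 3 wk livers (circles, bars are SE; filled where the adjusted p is under 0.05), with the 18 h values without the libraries of control 06 and furan 42 as diamonds. Only the frozen Lars2 circle is filled, and at 18 h all 5 circles lie below 0 and all 5 diamonds above it.

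Whether the furan difference itself changed with fixation was tested as an interaction. By edgeR 0 of 13739 genes passed for 18 h minus fresh-frozen (455 at an unadjusted p under 0.05, 1 by DESeq2) and 0 of 13156 for 3 wk minus fresh-frozen (590 unadjusted, 19 by DESeq2). Lars2 had interaction values of -2.62 ± 1.21 at 18 h (unadjusted p = 0.0462, adjusted p = 1.00) and -0.80 ± 0.45 at 3 wk (adjusted p = 1.00) in edgeR's fit, so its higher level in frozen furan livers was not shown to differ from that in FFPE livers. The value at 18 h was -0.33 to -3.37 when single libraries were left out.

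Partner genes of these RNAs came from lists drawn up with earlier results known. Of the RNA polymerase I and ribosomal DNA transcription genes 4 of 16 rose with furan, against the 8.21% of all genes, including the polymerase subunits Polr1e (0.87 ± 0.13, adjusted p = 0.00624) and Polr1a (0.48 ± 0.09, adjusted p = 0.0120, edgeR) and the helicase Ddx21. Of the rRNA processing genes 8 of 34 rose, led by the ribosome assembly factor Rrp12 (1.10 ± 0.13, adjusted p = 0.00252) and the snoRNP core protein Nop58 (0.81 ± 0.10, adjusted p = 0.00336, edgeR), with Utp20 at 0.59 ± 0.08, and 2 fell (Npm1 and Utp3, named after their values were seen), where 7.47% of all genes were called lower. These lists had medians of 0.14 and 0.17, against -0.01 for all genes tested. At 18 h, 1 of 16 (Ddx21) and 5 of 33 rose, against 3.92% of genes called higher and 4.47% called lower, with Rrp12 at 1.00 ± 0.19 and Nop58 at 0.77 ± 0.13, and at 3 wk 0 of 16 and 0 of 32 passed.

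Among the protein partners of the small RNAs, Pop1, a scaffold subunit of both RNase P and RNase MRP, was the 1 of 10 subunits that rose in frozen livers (0.74 ± 0.15, adjusted p = 0.0168, edgeR), and again the 1 of 10 at 18 h (1.05 ± 0.17, adjusted p = 0.00212). With 8.21% of all genes called higher and 7.47% lower in frozen livers, and 3.92% and 4.47% at 18 h, 1 of 10 is near the share of all genes in frozen livers. Mvp, the major vault protein, fell by 0.24 in frozen livers as 1 of 3 vault proteins (adjusted p = 0.0374, edgeR). Of 13 telomerase partners, the H/ACA protein Nhp2 rose (0.60 ± 0.10) and the deadenylase Parn fell by 0.23 in frozen livers. This 1 of 13 in each direction is near the 8.21% and 7.47% of all genes. At 18 h 2 of 13 rose, Nhp2 (0.65 ± 0.10) and Gar1 (0.67 ± 0.15), against 3.92% of all genes. The list for Y RNA partners held Ro, La and other proteins. None of its 5 tested genes passed in frozen or 18 h livers, and at 3 wk no gene of these lists passed.

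The synthetases gave the measure for Lars2 under furan. In frozen livers 3 of the 19 other genes of the mitochondrial list rose (Gars, Ears2 and Yars2), where 8.21% of all genes were called higher. Their log2 differences were from 0.36 to 0.39. The list's median was 0.06, and all 19 lay below the 1.29 of Lars2. Of the cytosolic synthetases 7 of 18 rose, against the same 8.21%, among them Vars (0.33 ± 0.06, adjusted p = 0.0132) and Iars (0.44 ± 0.09, adjusted p = 0.0201, edgeR), with a list median of 0.25. At 18 h Gars (0.41 ± 0.09) rose and Hars2 fell by 0.36 among the genes of the mitochondrial list. Cars, Rars and Tars rose among the 18 cytosolic ones, where 3.92% of all genes were called higher and 4.47% lower.

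The genes most like Rn45s within groups were a mixed set. By Pearson r of log2 counts per 1000000 non-member counts, with group means removed, over 22 libraries and 12460 genes, they were Mir6236 (r = 0.842), Prrc2c (0.835), the small nucleolar RNA Snord17 (0.825), Kmt2d (0.815) and Xist (0.799). Without the 18 h libraries of control 06 and furan 42 the same genes had r from 0.455 to 0.608. So the likeness was in large part that of these 2 libraries. The libraries of a group also differed in depth. Prrc2c, Kmt2d and Xist have transcripts of 11502, 19823 and 17946 nt, whereas Mir6236 and Snord17 have 123 and 238 nt. The median was 3374 nt for the longest transcript of the 11915 ranked genes that had a length. Among the members, Rpph1 had r = 0.899 with Rn45s, Vaultrc5 0.83 and Rmrp 0.682, and 0.699, 0.495 and 0.266 without the same libraries.

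Rmrp had other companions: Crebbp (0.926), Ugt1a9 (0.902), Ino80d (0.899), A1cf (0.889) and Mib1 (0.885), which kept r of 0.849 to 0.951 without those 2 libraries. Mir6236 was even closer to Lars2, with r = 0.992 over 22 libraries and 0.964 over 20, a pair chosen after its values were seen. Its level was 994 ± 71 CPM in furan and 390 ± 189 CPM in control frozen livers (SD, n = 3 each), a log2 difference of 1.28 ± 0.34 with an adjusted p of 0.0384 (edgeR). As for Lars2, it did not pass at 18 h (-1.41 ± 0.88, adjusted p = 0.367) or at 3 wk (0.49 ± 0.26, adjusted p = 0.546, edgeR). Whether reads of ribosomal RNA were counted for Mir6236 or Lars2 was not tested, and in bulk tissue fewer cells of a type and less RNA per cell cannot be told apart.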

How the data were processed

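Poly(A)-selected RNA-seq of liver pieces was analysed as raw counts per gene symbol, deposited by the authors for 24015 genes without normalization. Per the submitters' processing notes, CASAVA 1.8.2, STAR 2.3.0 and featureCounts 1.4.4 were used with mouse build mm9. The table has 24 columns; 22 were matched to a label by animal number and preservation, and the other 2 were not used. The members, gene lists and tests were chosen with earlier results of these data known. All members are described; up to 3 called genes of a partner list with the smallest p, and the 5 genes most like Rn45s and Rmrp, are named.

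Each comparison was fitted over the whole table with edgeR 4.0.16 in R 4.3.3 (filterByExpr, TMM, quasi-likelihood F test, Benjamini-Hochberg adjusted p under 0.05). The SE is the log2 difference over the square root of F. CPM is per 1000000 of all counts. Intervals (Wilson for shares, exact binomial for ratios of pooled counts) and floors of 3 counts are at the 95% level and cover counting error only. The fits were tested on simulated data. Pieces of 1 liver were checked for pairing across genes after removing group means: FFPE 18 h and frozen pieces had r from 0.407 to 0.511 and were nearest their own partner in 6 of 6 livers, FFPE 3 wk and frozen pieces 0.0893 to 0.270 (6 of 6), and the FFPE pieces 0.0113 to 0.288 (7 of 8). Replicates are separate animals, and no 2 libraries of a group agreed within sampling noise (lowest chi-square per degree of freedom 9.36). Alternatives were DESeq2 1.42.0, other scaling, filter, thinning and model choices, the liver as a block, each library left out, and other denominators for the Rn45s share. Sequence matches used blastn 2.17.0 with a word size of 11.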

Additional observations from a re-analysis of the deposited data

Results flagged for a closer look

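A library far from the other 3 of its group was found in 15 of 44 groups of values checked (Dixon's test at the 95% level). Chance alone gives about 1 in 20 for independent groups, but these groups share libraries and genes. The 15 flags can therefore not be weighed against that rate. The 18 h library of control 06 gave 8 of the 15. It was highest for Rn45s (373000 CPM against 64200 to 72171 in the other 3 controls), Lars2 (21450 CPM against 1721 to 2309), Rpph1 (162.4 CPM against 10.5 to 14.4), Rmrp (125.3 CPM against 6.30 to 8.54) and Vaultrc5 (18.43 CPM against 0.884 to 1.24). Per 1000000 Rn45s counts it was also highest for Rpph1 (435.3 against 163 to 199), Vaultrc5 (49.41 against 13.8 to 18.2) and Lars2 (57490 against 26810 to 31990). The frozen piece of that liver was not apart (1825 CPM of Rn45s). What sets the library apart was not tested.

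The 18 h library of furan 42 was far above its group for Rmrp (61.96 CPM against 8.85 to 15.9) and Vaultrc5 (7.138 CPM against 0.615 to 1.51). The 3 wk library of control 03 was highest for Vaultrc5 (33.37 CPM against 4.36 to 7.91). Terc was found only in the 3 wk libraries of furan 42 (0.4057 CPM, 3.076 per 1000000 Rn45s counts) and control 03 (0.412 CPM, 4.361 per 1000000 Rn45s counts) among the 3 wk libraries, on 3 and 4 counts. Where the other libraries of a group have no Terc count, any count is flagged, so the Terc flags show nothing beyond these counts.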

How the results depend on the processing

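Of the alternative values of single genes that had a test, 309 kept their direction and side of the threshold, 26 changed sign and 3 lost the call; 11 from DESeq2 kept their direction but had no adjusted p. Of the FFPE minus frozen values, which had no test, 255 moved by less than the spread between replicates and 35 by more. The furan call of Lars2 in frozen livers held under DESeq2, other scalings, no filter and thinning (adjusted p 0.0016 to 0.018) and was lost in one model of all 6 groups. That model moved the number of genes called to 138 (main 2162) for furan in frozen livers, 225 (1077) at 18 h, 2030 (99) at 3 wk, 5837 (9785) for 18 h against frozen in furan livers, and 5769 (8867) for 18 h and 6028 (3188) for 3 wk against frozen in control livers. At 3 wk the furan count was 353 with DESeq2 and 194 with no filter. The interactions had 1 (18 h) and 19 (3 wk) calls with DESeq2. The cause of these moves was not tested. Pieces pair by liver, so the liver (animal number) was also fitted as a block: the 18 h interaction then had 2 calls, and the 3 wk interaction values of Rn45s and Rmrp changed sign to 0.17 and 0.35 (neither passed), and it changed no other call. No block was possible for furan against control, whose animals differ.

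Leaving out single libraries gave 864 to 1620 furan calls in frozen livers, 633 to 1285 at 18 h and 17 to 173 at 3 wk, 1978 to 4398 calls for 3 wk against frozen in controls, and 0 to 5 for the 3 wk interaction. The frozen count moved most without furan 43 but also without every other frozen library except control 06, the 18 h count without furans 43 and 44, the 3 wk count without any library, and that of the controls without any frozen library; the 5 calls came without control 02. Furan log2 differences ranged from -0.24 to 0.97 for Rn45s in frozen livers (lowest without furan 44). At 18 h they ranged from -1.19 to 0.66 for Rn45s, -2.04 to 1.49 for Rpph1, -2.12 to 1.77 for Rmrp, -2.63 to 1.38 for Vaultrc5 and -2.10 to 0.94 for Lars2, each highest and of changed sign without control 06 alone, and Vaultrc5 at 3 wk ranged from -0.84 to 0.63 (without control 03). The 18 h interactions ranged from -1.81 to 0.0356 (Rn45s), -2.44 to 1.09 (Rpph1), -3.86 to 0.0216 (Rmrp) and -3.49 to 0.61 (Vaultrc5), and those at 3 wk from -0.45 to 0.74 (Rn45s) and -0.33 to 1.17 (Rpph1). The difference in Rn45s share ranged from -0.0192 to 0.176 percentage points in frozen livers and from -6.58 to 3.72 at 18 h (sign changed without furan 44 and without control 06). Without control 06 and furan 42 at 18 h, an alternative chosen after seeing the data, the furan differences were 0.31, 0.49, 0.68, 0.16 and 0.19 for Rn45s, Rpph1, Rmrp, Vaultrc5 and Lars2, all of the opposite sign to the full set. Low counts limit what can be said of Terc everywhere and of Vaultrc5, Rpph1 and Rmrp in frozen livers. There at most 20 counts of any of them were found in a library, though frozen libraries were the deepest (33101755 to 58048387 counts).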
